A study of Mus musculus with 8 samples.

Results

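AW551984 and the 3 Vwa5 genes of the mouse (Vwa5a, Vwa5b1 and Vwa5b2) form a small family whose transcripts were followed in cerebral cortex of mice carrying 1 mutant copy of Ago2. The 4 genes were taken by their symbols from a count table of 55416 genes, and all 4 were among the 18627 genes given an adjusted p. AW551984 brought the family into view because of its difference between the genotypes in these same libraries, so that difference is given as a description and was not tested. Vwa5a, Vwa5b1 and Vwa5b2 are there by family name, and for them the test over all genes is given.

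The L192P libraries came from heterozygous knock-in mice that carry the substitution named L192P on 1 allele (AGO2_L192P/+). The study's methods use another residue number for this knock-in in the mouse. The WT libraries came from wild-type mice, with 4 libraries of each genotype. Argonaute 2, the product of Ago2, holds a miRNA guide and lowers the output of mRNAs that pair with it. The knock-in was made by Cas9 editing in zygotes of the strain C57BL/6JUke and the founders were bred to wild-type mice. The labels give neither sex nor age and do not say that each library is a separate animal, so p-values measure the spread between these libraries only. Polyadenylated RNA was counted per gene, with totals from 20396357 to 43575900 counts, WT replicate 2 being the deepest. Replicate 1 of both genotypes stood apart in having almost no Xist (0.934 and 1.82 normalized counts in L192P and WT), against 5185 to 7257 in the other 6 libraries. Ago2 itself lay between 2222 and 2398 normalized counts in L192P and between 2083 and 2380 in WT (DESeq2 adjusted p = 0.968). A normalized count is a count divided by the size factor of its library. In bulk tissue, fewer cells of a type and less RNA per cell cannot be told apart.

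The proteins of this family carry a VIT domain (named after vault proteins and inter-alpha-trypsin inhibitors) followed by a von Willebrand factor type A (VWA) domain. VWA domains are folds that bind other proteins, in many cases through a metal ion, and they occur both in matrix and adhesion proteins and in intracellular complexes. The human gene VWA5A was studied as a candidate tumour suppressor, and the deposited table names it as the human counterpart of both Vwa5a and AW551984. Little is known of what any of these proteins does in cortex.

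AW551984 (ENSMUSG00000038112, chr9:39498692-39515979 of GRCm39, minus strand) and Vwa5a (ENSMUSG00000023186, chr9:38629560-38655595, plus strand) lie on 1 chromosome, 843 kb apart and in opposite orientation. The annotation places 31 protein-coding genes between them, and all 31 are olfactory receptor genes. Vwa5b1 (ENSMUSG00000028753, chr4:138291541-138363278, minus strand) and Vwa5b2 (ENSMUSG00000046613, chr16:20408173-20424131, plus strand) are on other chromosomes. The annotated coding sequences encode 804 residues for AW551984, 793 for Vwa5a, 1215 for Vwa5b1 and 1240 for Vwa5b2. AW551984 and Vwa5a were identical at 66.2% of 786 aligned residues. Vwa5b1 and Vwa5b2 were identical at 37.1% of 1123 residues, and pairs across these branches at 24.3% to 31.2%. AW551984 and Vwa5a are therefore the closest pair in this family by protein sequence and by position.

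Genes this similar could exchange reads in counting, which made the longest stretch shared by their transcripts worth showing. Between Vwa5b1 and Vwa5b2 it measured 51 bases. Between AW551984 and Vwa5a, the pair with the greatest protein identity, it measured 44 bases, within coding exon 8 of both genes:

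AW551984 (chr9:39509319-39509362, minus strand): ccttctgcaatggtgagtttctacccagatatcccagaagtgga
Vwa5a (chr9:38638256-38638299, plus strand): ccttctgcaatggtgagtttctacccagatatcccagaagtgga

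No window of 75 bases in any annotated transcript of AW551984, Vwa5a or Vwa5b1 (0 of 7361, 0 of 6229 and 0 of 9578 windows) occurred in a transcript of another gene, on either strand. The read length is not given in the sources used here, and shorter windows were not searched. Of 9456 windows of Vwa5b2, 844 (8.93%) lay in reverse orientation in the noncoding genes Gm35685 and Gm49748. Exons of Alg3, Gm35685 and Gm49748 overlap those of Vwa5b2 on the opposite strand over 1072 bases. The libraries were stranded, but whether the counting used strand is not given in the sources used here, and reads of Vwa5b2 and of these partners may not be separated.

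AW551984 was the member that stood apart between the genotypes. The L192P libraries, replicates 1 to 4, had 384.9, 438.1, 375.9 and 482.7 normalized counts of AW551984. The WT libraries had 200.3, 105.1, 126.0 and 87.8. The lowest L192P library was 1.88 times the highest WT library, so the groups did not overlap. The means were 420.4 ± 49.8 in L192P and 129.8 ± 49.5 in WT (SD, n = 4), a ratio of 3.24, and the fit gave a log2 fold change of 1.69 (SE 0.20). Among all tested genes, 0.789% were called higher in L192P by DESeq2. In 5.97% of them the groups did not overlap, with every L192P library above every WT library in 3.01% and below in 2.96%. Nothing is read from these shares for AW551984, which was chosen on this contrast.

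The SD of AW551984 was much the same in both genotypes in normalized counts, and so was larger in WT relative to the lower mean. As a share of the mean, the SD of AW551984 was 38.2% in WT and 11.8% in L192P, whereas in the other 3 members it lay between 4.75% and 11.3% in either genotype. WT replicate 1, one of the Xist-low libraries, was the highest of the WT group, and WT replicate 4 the lowest. Same-numbered libraries differed by ratios of 1.92, 4.17, 2.98 and 5.50 for replicates 1 to 4, so the smallest ratio was that of the Xist-low pair. Without replicate 1 of both genotypes the log2 fold change of AW551984 was 2.02, and without WT replicate 4 it was 1.55.

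**Figure D1:**
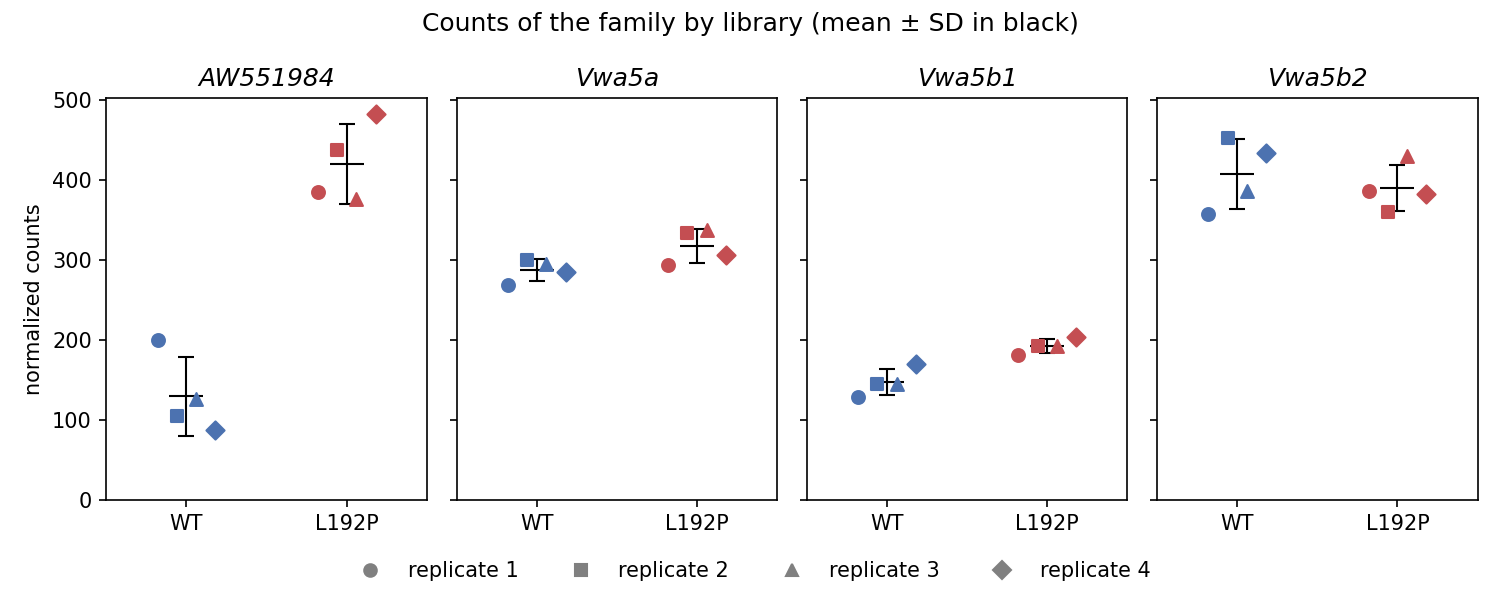
Normalized counts (vertical axis, from 0) of the 4 genes in each WT (blue) and L192P (red) library, 1 marker shape per replicate number, with the mean ± SD of the 4 libraries in black. AW551984 lies between 87.8 and 200.3 in WT and between 375.9 and 482.7 in L192P, and the other 3 genes differ far less.

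Vwa5a, the closest relative of AW551984, did not pass the threshold over all genes. Its L192P libraries, replicates 1 to 4, had 293.4, 333.4, 337.8 and 306.7 normalized counts, and its WT libraries 268.6, 300.0, 295.5 and 285.6. The groups overlapped, since L192P replicate 1 lay below WT replicates 2 and 3. The fitted log2 difference of Vwa5a was 0.14 (SE 0.10, 95% interval -0.063 to 0.35), at a DESeq2 adjusted p of 0.772. Over the 17 alternatives the adjusted p ran from 0.610 with edgeR to 0.994 with independent filtering off. An exact two-sided permutation test of its normalized counts gave p = 0.0857. In same-numbered libraries the L192P value of Vwa5a was the higher in 4 of 4, at ratios of 1.09, 1.11, 1.14 and 1.07 for replicates 1 to 4, and with the number as a block the DESeq2 adjusted p was 0.710.

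Vwa5b1 had a smaller excess in L192P that did not pass the threshold over all genes. The L192P libraries, replicates 1 to 4, had 181.2, 192.3, 192.6 and 203.6 normalized counts of Vwa5b1, and the WT libraries 129.3, 145.2, 145.6 and 169.7. Every L192P library was above every WT library, but the lowest L192P value was only 1.07 times the highest WT value. The means were 192.4 ± 9.14 in L192P and 147.5 ± 16.7 in WT (SD, n = 4), and the fitted log2 difference was 0.39 (SE 0.13, 95% interval 0.12 to 0.65). The DESeq2 adjusted p of Vwa5b1 was 0.150, at an unadjusted p of 0.00394. Over the 17 alternatives the adjusted p ran from 0.0959 with total-count size factors to 0.453 without WT replicate 2, and the log2 fold change from 0.33 to 0.45. The exact two-sided permutation test gave p = 0.0286, the smallest value that 4 against 4 libraries allow. Of all tested genes, 9.44% had an unadjusted p under 0.05 and 3.01% had all L192P libraries above all WT libraries. In same-numbered libraries the L192P value was the higher in 4 of 4, at ratios of 1.40, 1.32, 1.32 and 1.20 for replicates 1 to 4.

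Vwa5b2 was the most abundant member in WT by normalized counts and did not differ detectably. Its L192P libraries, replicates 1 to 4, had 386.8, 360.7, 430.1 and 383.3 normalized counts, and its WT libraries 357.9, 453.0, 386.7 and 434.3. The lowest library of all was WT replicate 1 and the highest WT replicate 2, so the L192P values of Vwa5b2 lay wholly within the WT range. The fitted log2 difference of Vwa5b2 was -0.067 (SE 0.11, 95% interval -0.28 to 0.14), at a DESeq2 adjusted p of 0.948, and none of the 17 alternatives brought it below 0.734. The exact two-sided permutation test gave p = 0.514. Of the 3 Vwa5 genes, then, 0 passed by DESeq2, while 1.36% of all tested genes passed by DESeq2 in either direction. Of these 3, 1 had an unadjusted DESeq2 p under 0.05 and 0 passed by edgeR or limma-voom. Over all genes edgeR called only 53 and limma-voom 45, against 253 by DESeq2. Counts by edgeR, here and in the lists below, are to be read beside those totals.

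Levels of different genes were compared per kb of annotated exon. In WT, Vwa5b2 had 51.9 ± 5.53 and Vwa5a 48.9 ± 2.36 normalized counts per kb (SD, n = 4), and these neighbours in the order overlapped, at 45.5 to 57.6 and 45.7 to 51.0. AW551984 had 18.7 ± 7.13 and Vwa5b1 15.9 ± 1.79 normalized counts per kb in WT, and they overlapped too, at 12.6 to 28.8 and 13.9 to 18.3. In the L192P libraries the order of the means was AW551984 at 60.5 ± 7.17, Vwa5a at 54.1 ± 3.63, Vwa5b2 at 49.6 ± 3.68 and Vwa5b1 at 20.7 ± 0.983 normalized counts per kb. The first 3 of these overlapped with their neighbours, and Vwa5b1 lay below all of them. With the length of the longest transcript in place of all exons, AW551984 stayed first in L192P at 85.7, and in WT, at 26.5 normalized counts per kb, stayed below Vwa5a and Vwa5b2 and above Vwa5b1. Vwa5a and Vwa5b2 changed places in L192P, at 62.4 and 71.1. All 4 lay below the median of the tested genes: averaged over the 8 libraries, their level per kb stood at percentile 42.4 for AW551984, 47.6 for Vwa5a, 29.8 for Vwa5b1 and 47.3 for Vwa5b2 among tested genes.

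The make-up of the family moved accordingly. AW551984 supplied between 9.38% and 21.5% of the summed level per kb of the 4 genes in the WT libraries, and between 28.9% and 36.1% in the L192P libraries. The ratio of AW551984 to Vwa5a per kb was 0.260 to 0.631 in WT, so Vwa5a exceeded AW551984 in every WT library. In L192P that ratio was 0.941 to 1.33, above 1 in replicates 1, 2 and 4 and below it in replicate 3.

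The other genes with a VIT domain are Parp4, a component of the vault particle, and the Itih genes, which encode heavy chains of secreted inter-alpha-trypsin inhibitors. Of 7 such genes listed, 4 were tested and 0 passed by DESeq2 or edgeR, with 2 (Itih2 and Itih3) at an unadjusted p under 0.05. Over all tested genes these shares were 1.36% by DESeq2 and 9.44% at an unadjusted p under 0.05. The median log2 fold change of the 4 tested genes was 0.21, against 0.0019 over all tested genes. Itih2 had 57.2 ± 19.3 normalized counts in L192P and 34.6 ± 14.1 in WT (SD, n = 4), which gave a log2 difference of 0.70 (SE 0.35, DESeq2 adjusted p = 0.500). Itih3 had 419.0 ± 64.6 against 350.0 ± 35.6 normalized counts and a DESeq2 adjusted p of 0.515. The log2 differences were 0.17 for Itih5 (DESeq2 adjusted p = 0.895) and 0.034 for Parp4 (DESeq2 adjusted p = 0.990). Itih4 averaged 2.32 (L192P) and 1.01 (WT) normalized counts and was given no adjusted p, and Itih1 and Itih6 had 0 counts in every library. The vault genes Mvp, which encodes the major vault protein, and Tep1, which encodes a telomerase-associated component, gave log2 differences of -0.055 (DESeq2 adjusted p = 0.976) and 0.14 (DESeq2 adjusted p = 0.927). Of the 3 vault genes, Parp4 included, 0 passed by DESeq2 or edgeR and 0 had an unadjusted p under 0.05.

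**Figure D2:**
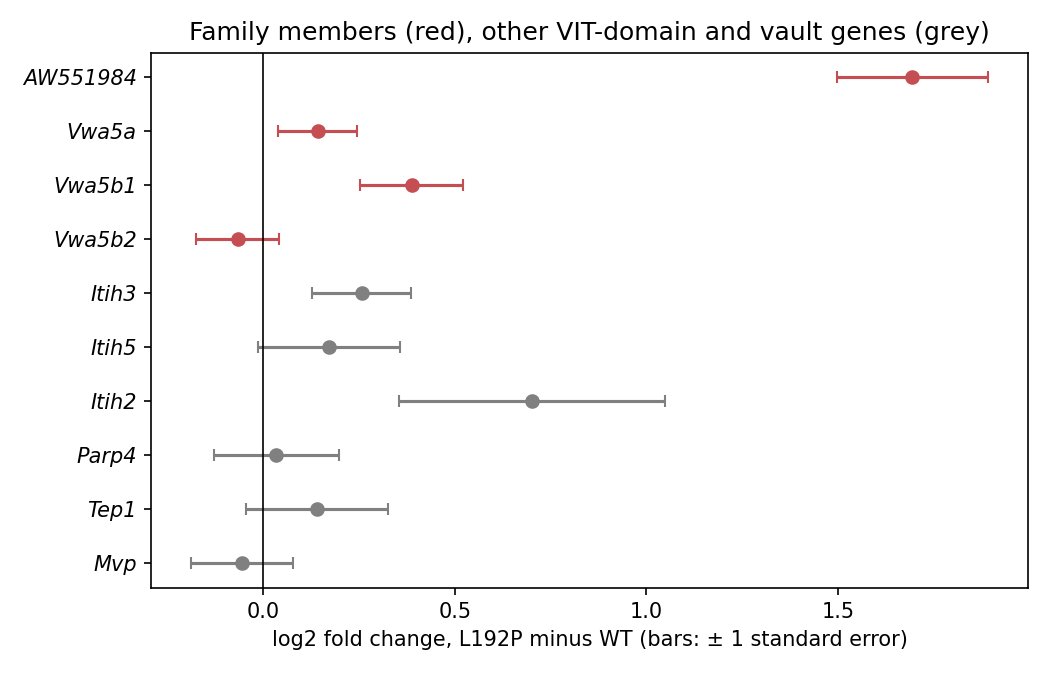
Log2 fold change of L192P over WT (horizontal axis) with ± 1 standard error for the 4 family members (red) and the tested VIT-domain and vault genes (grey). AW551984 lies at 1.69, and the other genes lie between -0.067 and 0.70.

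A wider list held 56 genes whose proteins carry a VWA or related domain, among them integrin alpha chains, copines, collagens, matrilins and the alpha-2-delta subunits of calcium channels. Of the 46 tested, 2 were lower and 0 higher in L192P by DESeq2, against 0.569% called lower and 0.789% called higher over all tested genes. By edgeR 0 passed, and 6 of the 46 had an unadjusted DESeq2 p under 0.05, against 9.44% over all tested genes. The median log2 fold change was 0.026. Coch, which encodes the extracellular protein cochlin, fell from 1056 ± 135.8 to 800.5 ± 101.1 normalized counts (SD, n = 4), a log2 difference of -0.40 (SE 0.11, DESeq2 adjusted p = 0.0331). Cacna2d3, an alpha-2-delta subunit, fell from 2884 ± 224.9 to 2355 ± 223.6 normalized counts, a log2 difference of -0.29 (SE 0.083, DESeq2 adjusted p = 0.0347). Both were lost with total-count size factors, with independent filtering off, with edgeR, with limma-voom and without any one of L192P replicates 2 and 3 and WT replicates 2 and 4. Coch passed in 9 and Cacna2d3 in 7 of 17 alternatives, and the highest DESeq2 adjusted p was 0.219 for Coch and 0.251 for Cacna2d3, each without WT replicate 4.

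Genes around the members were examined next. For each member, the 5 nearest tested genes on either side were taken, which gave 31 different genes besides AW551984 and Vwa5a themselves. Of these, 0 passed by DESeq2 or edgeR and 4 had an unadjusted p under 0.05 (Gramd1b, Nrgn, Otud3 and Ubxn10), and their median log2 fold change was -0.032. The shares over all tested genes were 1.36% and 9.44%. With the replicate number as a block, 2 of the 31 passed, both lower in L192P, against 2.43% of all genes called lower in that fit. They were Nrgn (log2 fold change -0.22, DESeq2 adjusted p = 1.33e-05) and Camk2n1 (-0.17, DESeq2 adjusted p = 0.00239). Nrgn, which encodes the calmodulin-binding protein neurogranin, also passed without replicate 1 of both genotypes (DESeq2 adjusted p = 0.0110), without L192P replicate 2 (0.0376) and without WT replicate 1 (0.00861). Around AW551984, the nearest tested genes were Gm8543 at 513 kb and Zfp202 at 605 kb, at log2 differences of -0.11 (SE 0.60) and -0.099 (SE 0.19). The 10 neighbours of AW551984, Vwa5a included, had log2 fold changes from -0.12 to 0.61, and the gene at 0.61, Gm5055, averaged only 6.54 normalized counts. Alg3, which overlaps Vwa5b2 on the opposite strand, had a log2 difference of 0.018 (SE 0.12).

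**Figure D3:**
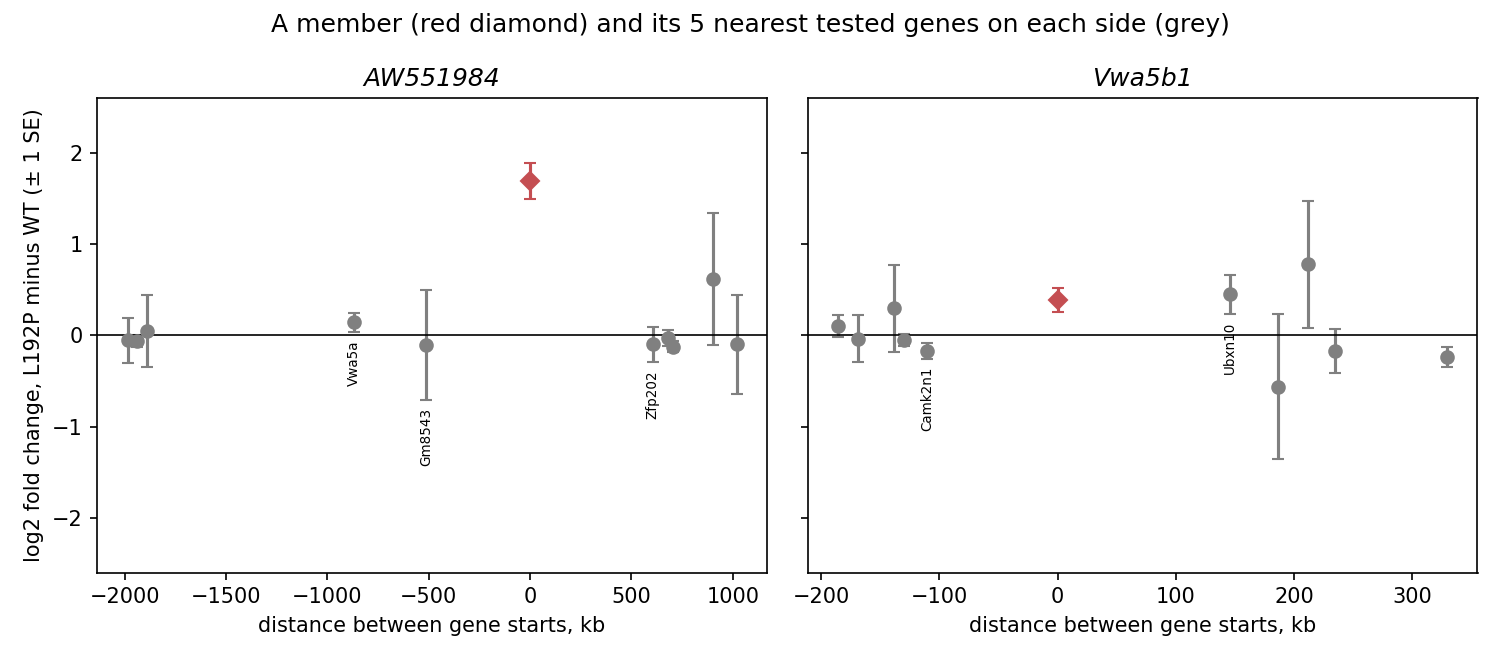
Log2 fold change of L192P over WT with ± 1 standard error (vertical axis) for AW551984 and Vwa5b1 (red diamonds) and the 5 nearest tested genes on each side (grey), by distance between gene starts in kb. AW551984 lies at 1.69, while its 10 neighbours lie between -0.12 and 0.61.

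Because Argonaute 2 acts through miRNA pairing in 3′ UTRs, the annotated 3′ UTRs were searched for 7-base matches to bases 2 to 8 of 12 miRNAs, chosen as well expressed in brain or as discussed in the study. The searched miRNAs were let-7a-5p, miR-9-5p, miR-26a-5p, miR-29a-3p, miR-92a-3p, miR-128-3p, miR-138-5p, miR-181a-5p, miR-125b-5p, miR-30a-5p, miR-132-3p and miR-5121. The list as fixed also held miR-124-3p, which was not searched because its sequence was not found. AW551984, with a 3′ UTR of 1536 bases, held 1 match, to miR-128-3p, and Vwa5a, with 1564 bases, held 0. Vwa5b1, whose 3′ UTR is much longer at 4837 bases, held 3 matches, and Vwa5b2, with 296 bases, held 1. These sites are shown with 8 bases on either side, 5′ to 3′ as in the transcript, with the match in capitals:

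AW551984, miR-128-3p (chr9:39499329-39499335, minus strand): attgttcaCACTGTGcttattaa
Vwa5b1, miR-5121 (chr4:138295883-138295889, minus strand): acaagaacCACAAGCttgctcca
Vwa5b1, miR-125b-5p (chr4:138294228-138294234, minus strand): ggtcatggCTCAGGGcagtcaat
Vwa5b1, miR-138-5p (chr4:138292044-138292050, minus strand): tctcctcaCACCAGCactgcctc
Vwa5b2, miR-29a-3p (chr16:20423898-20423904, plus strand): cagtctctTGGTGCTgggaaaga

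The study names miR-5121 in its text, and miR-29-3p in a figure caption where the text names miR-92-3p. Below, the mature miRNA that matches AW551984 is printed beside miR-5121 and miR-29a-3p, which match Vwa5b1 and Vwa5b2. The seed, bases 2 to 8, is in capitals:

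miR-128-3p: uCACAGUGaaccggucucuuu
miR-5121: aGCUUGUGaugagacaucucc
miR-29a-3p: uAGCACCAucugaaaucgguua

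Such matches are common. Of 20876 3′ UTRs, 20.5% held the site of miR-128-3p, 14.1% that of miR-29a-3p and 9.56% that of miR-5121. Those of miR-125b-5p and miR-138-5p were in 14.4% and 13.0%. A match is a string of letters in the annotation, and binding was not measured in these libraries.

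The libraries that were high or low in AW551984 within a genotype were compared with those of other genes. Over 8 libraries, after subtracting the mean of each genotype from log2 of the normalized count plus 1, the 5 of 13418 genes with the highest Pearson correlation with AW551984 were Vdac3 (0.988), Tceal3 (0.976), Eef1e1 (0.965), Ndufs7 (0.963) and Baiap3 (0.961). The Spearman coefficients of these 5 genes were between 0.881 and 0.976. Without the 2 libraries farthest from their genotype mean in AW551984, WT replicates 1 and 4, the Pearson coefficients were between 0.757 and 0.970. These points share their libraries and depths, and the 5 genes were taken as the highest of 13418. Among the 4 members themselves, AW551984 had coefficients of -0.42, -0.71 and -0.81 with Vwa5a, Vwa5b1 and Vwa5b2, and the 3 Vwa5 genes had coefficients of 0.32 to 0.52 with each other.

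Vdac3 and Ndufs7 encode mitochondrial proteins, an outer membrane channel and a subunit of complex I. Of the 5 genes, Vdac3, Tceal3, Eef1e1 and Ndufs7 lay between log2 differences of -0.052 and 0.0040, with no DESeq2 adjusted p below 0.920. Baiap3, which encodes a relative of the Munc13 proteins that acts in the trafficking of dense-core vesicles, was the one that also differed between the genotypes. The L192P libraries had 970.7, 995.7, 1019 and 1053 normalized counts of Baiap3 for replicates 1 to 4, and the WT libraries 438.0, 236.7, 274.8 and 185.0. The order of the WT libraries was the same for Baiap3 as for AW551984 and that of the L192P libraries was not, and Baiap3 was named for its correlation with AW551984 within genotypes. The log2 difference of Baiap3 was 1.83 (SE 0.26, DESeq2 adjusted p = 6.51e-09). When the genotype means were left in, Baiap3 had the highest coefficient with AW551984 of all 13418 genes, at 0.995, followed by Arxes2, Intu, Gabrq and Tmie at 0.988 to 0.983. That coefficient includes the difference between the genotypes that brought AW551984 into view.

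**Figure D4:**
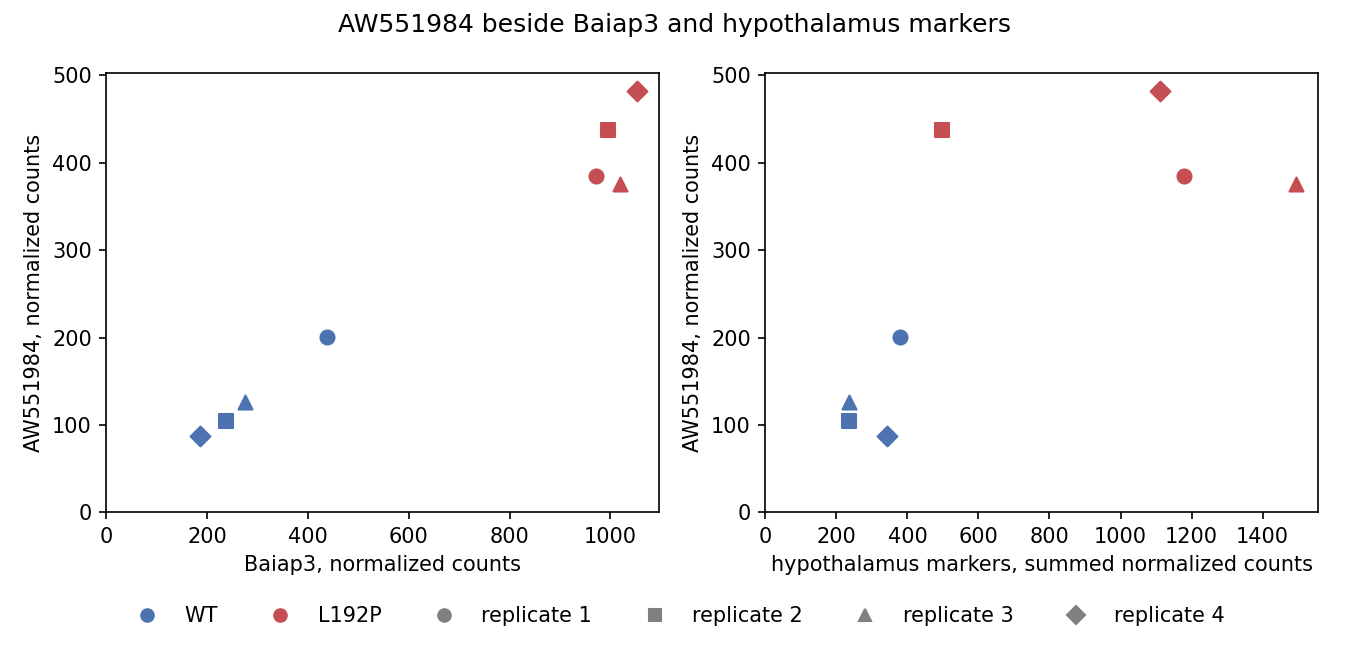
Normalized counts of AW551984 (vertical axes) against normalized counts of Baiap3 (left) and against the summed normalized counts of 19 hypothalamus marker genes (right), 1 point per library, WT in blue and L192P in red. Both measures separate the genotypes, and within L192P the library with the lowest marker sum, replicate 2 at 496.2, had 438.1 normalized counts of AW551984.

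Some markers of the hypothalamus were higher in L192P, as AW551984 was. Of 19 hypothalamus markers, 11 were tested and 5 were higher in L192P by DESeq2, namely the neuropeptide genes Oxt (log2 difference 4.53), Avp (4.22) and Gal (1.78), the transcription factor gene Otp (3.41) and the signalling adaptor gene Irs4 (2.41), against 0.789% called higher over all tested genes. Avp overlapped between the genotypes, at 19.3 to 458.9 normalized counts in L192P and 10.5 to 21.9 in WT. Oxt ran from 19.3 to 154.5 in L192P and from 2.73 to 7.60 in WT. Of the 11, 10 had log2 fold changes above 0, and Pomc went the other way (-0.12). With the replicate block or with edgeR 3 of the listed markers passed. The block fit gave an adjusted p to 12536 genes, against 18627 in the main fit. Markers with few counts may have had none there, and Otp and Gal averaged 22.1 and 19.4 normalized counts. The median log2 fold change of the 11 was 1.78. The summed level of all 19 was 496.2 to 1493 normalized counts in the L192P libraries and 235.0 to 378.8 in the WT libraries. Kiss1 had 0 counts in every library, Nkx2-4 and Hmx2 averaged under 1 normalized count, and Hmx3 had 0 in the WT libraries. The libraries were not in the same order for this sum and for AW551984. WT replicate 1 was the highest WT library for both, but WT replicate 4 had the second-highest sum of its group, 341.8, and the lowest AW551984. L192P replicate 3 had the highest sum and the lowest AW551984 of its group. That sum rests in part on Pmch and Hcrt, at 261.7 and 177.6 normalized counts in this library. Their L192P means were only 70.2 and 47.7, and the fit gave them no p-value. A mean score was taken over the markers that averaged 10 or more normalized counts, Pmch and Hcrt among them. After removing the genotype means, this score had a Pearson coefficient of 0.11 with AW551984 over the 8 libraries. The scores of the striatum and thalamus lists, described below, had coefficients of -0.26 and -0.30. No such coefficient was computed for the other lists, so these values do not show whether AW551984 followed another list within a genotype. The part of hypothalamic tissue in the AW551984 difference was not tested.

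Of 14 striatum markers, all tested and all with log2 fold changes below 0, 3 were lower by DESeq2, against 0.569% over all tested genes, and 1 by edgeR. The 3 included Penk (log2 difference -0.51) and Sh3rf2 (-0.61). The summed level of the 14 was 37990 to 47165 normalized counts in L192P and 50349 to 61913 in WT. The defining markers of cortex were present in every library: the 10 genes of cortical excitatory neurons, led by the glutamate transporter gene Slc17a7, summed to 42734 to 48298 normalized counts in L192P and 48662 to 50944 in WT. Of these 10 genes, 0 passed by DESeq2 or edgeR, and 9 had log2 fold changes below 0. One gene each passed, higher in L192P, in the lists of cortical interneurons (Gad2), thalamus (Gbx2), olfactory bulb (Eomes) and meningeal fibroblasts (Slc6a13), against 0.789% called higher over all tested genes, and 0 of these 4 passed by edgeR. The remaining lists were those of hippocampus, basal forebrain cholinergic neurons, astrocytes, oligodendrocytes, microglia, endothelial cells, choroid plexus, ependymal cells and erythroid cells. Together with cortical excitatory neurons these made 10 lists with 72 tested genes. Of the 72, 0 passed by DESeq2 or edgeR and 11 had an unadjusted p under 0.05. The shares over all tested genes were 1.36% by DESeq2 and 9.44%. The 11 included Chat, Slc5a7, Ecel1 and Lhx8 of the basal forebrain cholinergic list, whose 6 genes all had log2 fold changes above 0 (median 0.45). That list summed to 1501, 1930, 1121 and 1859 normalized counts in L192P replicates 1 to 4. In WT replicates 1 to 4 it summed to 1332, 976.1, 1170 and 1116. The cortical interneuron list, picked out after its values were seen, summed to 30839, 33917, 30559 and 33000 in L192P replicates 1 to 4. In WT replicates 1 to 4 the interneuron sums were 32567, 28589, 30638 and 28371. The WT libraries were in the same order for this sum as for AW551984. In L192P, replicates 2 and 4 changed places. The part of these tissues and cells in the values of the family was not tested.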

How the data were processed

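Raw counts per gene were deposited by the authors for 4 L192P and 4 WT libraries. Per the labels and the study's methods, libraries were stranded mRNA libraries, reads were aligned with STAR 2.7.9a (2.7.9b in the methods) to GRCm39 and counted over gene loci with featureCounts 1.5.1. The Ensembl release and the strand setting are not given in the sources used here. A second deposited table, of normalized values, was not used.

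DESeq2 1.42.0 in R 4.3.3 was fitted to all genes with genotype as the only term, with calls at a Benjamini-Hochberg adjusted p under 0.05 over all genes, as in the study's methods. Fold changes are unshrunken, and 95% intervals come from the standard errors. Depth ran from 20396357 to 43575900 counts per library, and counting error enters the standard errors. Alternatives were edgeR 4.0.16 (quasi-likelihood), limma-voom (limma 3.58.1), other size factors and filters, a replicate block and leaving out libraries. The programs were tested on simulated data. Exact permutation tests of single genes were two-sided.

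Libraries of 1 genotype differed by more than sampling noise, at a chi-square per degree of freedom of 5.52 to 22.6. Deviations from the genotype mean correlated between same-numbered libraries at 0.63, 0.38, 0.23 and 0.33 over 13422 genes, against -0.38 to 0.14 for different numbers, so same-numbered libraries deviated together. The meaning of the replicate numbers is not stated in the labels, and the number entered the replicate-block alternative only.

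The members and gene lists were chosen with earlier results of these data known. Named genes are the members, the 5 genes most correlated with AW551984, the VIT and vault genes, and, of other lists and neighbours, those that passed. Nearest neighbours, the genes with a pattern like AW551984 under the alternative measure and genes at an unadjusted p under 0.05 were named after their values were seen. Positions, exon lengths and 3′ UTRs are from GENCODE M39 on GRCm39. Sequences of mature miRNAs are from RefSeq (GRCm38.p6 table), where that of miR-124-3p was not found, so miR-124-3p was not searched. A called gene of the striatum list is not reported here by name.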

Additional observations from a re-analysis of the deposited data

Results flagged for a closer look

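In 58 groups of 4 libraries, made from the counts of the members, of the VIT and vault genes and from the summed marker lists, a library was sought that lay far from the other 3 of its genotype. Such a library was found in 5 groups, and chance marks about 1 group in 20, here 2.9. None of the 5 concerned AW551984 or a Vwa5 gene. L192P replicate 3 lay apart in the summed normalized counts of the striatum list (37990, with a gap to the next library of 0.856 of the group's range), the hippocampus list (2691, gap 0.881) and the olfactory bulb list (944.3, gap 0.854). WT replicate 1 lay apart in the microglia list (4979, gap 0.856) and in Itih3 (296.9 normalized counts, gap 0.903), which put it below the other WT libraries. The Vwa5b1 log2 fold change without WT replicate 1 was 0.33 and without L192P replicate 3 was 0.39.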

How the results depend on the processing

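Over 17 alternatives AW551984 stayed higher in L192P, at log2 fold changes from 1.55 to 2.02. Vwa5a (0.11 to 0.18), Vwa5b1 (0.33 to 0.45) and Vwa5b2 (-0.13 to -0.0092) kept their direction and did not pass in any of the 17. With the replicate block their adjusted p-values were 0.710, 0.199 and 0.924, so the block changed no call among the members or the VIT and VWA lists. It moved the called hypothalamus markers from 5 to 3 and the called neighbours from 0 to 2. Called markers of the other lists went from 7 to 19 (1 with edgeR, lower in L192P). The block fit gave an adjusted p to 12536 genes, against 18627 in the main fit, so a call can be lost there without a test. The count of called genes, 253 with DESeq2, was 53 with edgeR, 45 with limma-voom, 533 with the replicate block and 500 without replicate 1 of both genotypes, and between 112 (without WT replicate 4) and 496 (without WT replicate 1) when 1 library was left out. The share of calls higher in L192P was 58.1%, against 72.4% with total-count size factors, 42.8% with the replicate block and 83.0% with edgeR. The causes were not tested. Leaving out 1 library gave 0 to 2 called VWA-domain genes, 4 to 6 hypothalamus markers and 0 or 1 neighbouring gene. Of the 5 genes most like AW551984, 1 (Vdac3) remained by Spearman correlation and 1 (Baiap3) with the genotype means left in. Baiap3 was thus not among the 5 highest by Spearman correlation. Length in the annotation sets the levels per kb, and at 134 to 802 counts per library and gene a small difference in a Vwa5 gene could not be detected.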
